A study of Mus musculus with 16 samples.

Results

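Genes for the nucleolus and for ribosome biogenesis were followed through the differentiation of C2C12, a mouse myoblast line that fuses into multinucleated myotubes in culture. The genes were 49, chosen by symbol from gene families with known nucleolar roles, of 31053 genes in the expression table. All 49 were found, and all 49 were among the 10767 genes with enough reads to be tested. mRNA was sequenced from 4 samples each of WT myoblasts, WT myotubes, Fam134bKO myoblasts and Fam134bKO myotubes. The Fam134bKO cells were made with a lentiviral vector that carried Cas9 and guides against Fam134b, an ER-phagy receptor, and were selected with Blasticidin and Neomycin; the sources used here do not call them a single clone. All cells were kept in DMEM with fetal bovine serum, the labels call the 4 samples of a group biological replicates, and they give no day of differentiation.

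The nucleolus is the part of the nucleus in which RNA polymerase I transcribes ribosomal RNA. Box C/D and H/ACA small nucleolar ribonucleoproteins (snoRNPs) then methylate and pseudouridylate this RNA, the small subunit processome cuts out the 18S part, and assembly factors and helicases build the large subunit around the rest. Myc, a transcription factor that binds with Max to the sequence CACGTG, the E-box, is a known driver of these genes in proliferating cells, and ribosome production is known to be highest in cells that grow and divide.

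The promoters of the nucleolar genes were read for that motif, and no other motif was searched. RefSeq windows on GRCm38.p6, 300 bases long and reaching to 50 bases after the start site, were matched for 43 of the 49 genes. CACGTG, which is its own reverse complement, lay in at least 1 window of 8 of these 43 genes (18.6%), against 12.1% of 8266 tested genes with a window and 8.09% of all 27025 genes with one. The 8 were Imp4, Mybbp1a, Nop2, Pes1, Rrn3, Utp18, Utp20 and Wdr43. Shown here are the 5 of them whose mRNA was called lower on differentiation in at least 1 genotype, all on the plus strand and cut to 280 bases, from 250 bases before the RefSeq start site to 30 bases from it on, with the E-box in capitals.

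Wdr43, chr17:71615965-71616244: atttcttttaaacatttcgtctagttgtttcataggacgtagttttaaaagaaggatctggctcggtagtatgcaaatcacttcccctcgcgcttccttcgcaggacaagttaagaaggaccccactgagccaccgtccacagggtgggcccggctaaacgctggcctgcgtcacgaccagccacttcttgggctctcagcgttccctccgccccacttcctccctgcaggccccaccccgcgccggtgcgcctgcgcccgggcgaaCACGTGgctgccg

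Nop2, chr6:125131633-125131912: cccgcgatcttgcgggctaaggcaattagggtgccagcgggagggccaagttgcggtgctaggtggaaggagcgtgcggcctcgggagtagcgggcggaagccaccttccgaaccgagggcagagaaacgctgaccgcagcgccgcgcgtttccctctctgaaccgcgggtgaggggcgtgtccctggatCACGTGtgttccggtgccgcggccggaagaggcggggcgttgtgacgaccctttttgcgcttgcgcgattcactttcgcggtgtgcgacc

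Imp4, chr1:34439579-34439858: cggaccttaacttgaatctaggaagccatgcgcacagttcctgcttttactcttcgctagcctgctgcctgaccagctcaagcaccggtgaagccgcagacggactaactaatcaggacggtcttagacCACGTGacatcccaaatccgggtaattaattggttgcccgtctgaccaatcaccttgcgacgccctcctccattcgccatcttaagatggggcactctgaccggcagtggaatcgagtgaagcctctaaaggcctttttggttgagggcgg

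Pes1, chr11:3963725-3964004: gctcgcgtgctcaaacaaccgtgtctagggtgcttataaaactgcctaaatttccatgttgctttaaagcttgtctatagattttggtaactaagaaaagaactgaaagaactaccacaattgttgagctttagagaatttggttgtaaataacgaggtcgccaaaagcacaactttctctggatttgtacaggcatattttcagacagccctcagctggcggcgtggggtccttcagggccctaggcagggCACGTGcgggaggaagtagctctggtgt

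Rrn3, chr16:13780449-13780728: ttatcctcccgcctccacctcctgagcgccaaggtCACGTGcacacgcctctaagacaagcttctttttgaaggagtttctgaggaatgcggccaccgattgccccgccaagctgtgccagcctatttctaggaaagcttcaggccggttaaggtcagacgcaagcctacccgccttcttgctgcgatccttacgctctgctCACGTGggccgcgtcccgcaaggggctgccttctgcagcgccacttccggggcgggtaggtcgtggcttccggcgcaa

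The motif began 17 bases after the start site in Wdr43, 60 bases before it in Nop2, 121 bases before it in Imp4 and 2 bases after it in Pes1. Rrn3 held 2 copies, at 215 and 48 bases before the start site. A match to these letters is a description of the window, and nothing was measured at these sites. The median log2 fold change from WT myoblasts to WT myotubes was -0.39 over the 8 genes with the motif and -0.36 over the 35 without it, and 3 of 8 and 9 of 35 were called lower, where 9.16% of all tested genes were. From Fam134bKO myoblasts to Fam134bKO myotubes it was -0.32 over the 8 and -0.09 over the 35, and 3 of 8 and 5 of 35 were called lower, where 16.1% of all tested genes were. The difference between genes with and without the motif was not tested.

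Library depth was between 1484750 and 3287461 reads on genes. The shallow end was Fam134bKO myotubes, replicates 4 and 2, at 1484750 and 1790524 reads. The targeted gene, Fam134b (ENSMUSG00000022270), read 214, 251, 213 and 149.7 normalized counts in WT myoblasts and 26.2, 24.9, 35.6 and 23.4 in Fam134bKO myoblasts. In myotubes it read 287, 146, 263 and 232 in WT and 31.9, 56.9, 50.4 and 28.0 in Fam134bKO cells, so every Fam134bKO sample was below every WT sample. Normalized counts are the deposited values taken back from the log2 scale.

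The labelled stages were checked against their markers. Myotube markers were called higher in myotubes for 8 of 8 genes in both genotypes, and their summed normalized counts went from between 1465 and 2064 to between 22208 and 32749 in WT cells, and from between 7.0 and 13.0 to between 9143 and 11392 in Fam134bKO cells. Myod1, the myogenic transcription factor that defines myoblasts, was between 236 and 375 in WT myoblasts but only between 5.81 and 15.7 in Fam134bKO myoblasts, in which Myog was listed at 0 in all 4 samples. The samples labelled Fam134bKO myoblasts thus nearly lacked Myod1 mRNA. Of the 4 myoblast markers, Myod1 among them, 3 were tested. In each genotype 2 of these were called higher in myotubes, and 1 was called lower in Fam134bKO cells. Between Fam134bKO and WT myoblasts, 2 of the 3 were called lower and 1 was positive without a call (log2 fold change 0.68). Proliferation markers, 10 genes, summed to between 6938 and 7603 in WT myoblasts, 3348 and 5347 in WT myotubes, 5147 and 7709 in Fam134bKO myoblasts and 1246 and 2190 in Fam134bKO myotubes. Of markers of other cell types, endothelial genes summed to at most 1.94 with Cdh5 at 0 in every sample, immune genes to at most 11.2 with Ptprc and Adgre1 at 0, adipocyte genes to at most 26.2 with Adipoq and Plin1 at 0, and fibroblast genes to at most 17.1. Osteoblast and chondrocyte genes, nearly all of it Runx2, summed to between 112 and 150.1 in WT myoblasts, 38.9 and 83.6 in WT myotubes, 69.7 and 118 in Fam134bKO myoblasts and 26.3 and 76.5 in Fam134bKO myotubes. Runx2 was called lower on differentiation in WT (log2 fold change -1.11, SE 0.30, adjusted p = 0.0119) and in Fam134bKO cells (log2 fold change -0.97, SE 0.30, adjusted p = 0.0182). Pparg, the regulator of fat cells, was called higher in Fam134bKO than in WT myoblasts (log2 fold change 1.84, SE 0.59, adjusted p = 0.0366) and lower on their differentiation (log2 fold change -2.27, SE 0.59, adjusted p = 0.00543). The part of these genes in the results on nucleolar genes was not tested.

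**Figure D1:**
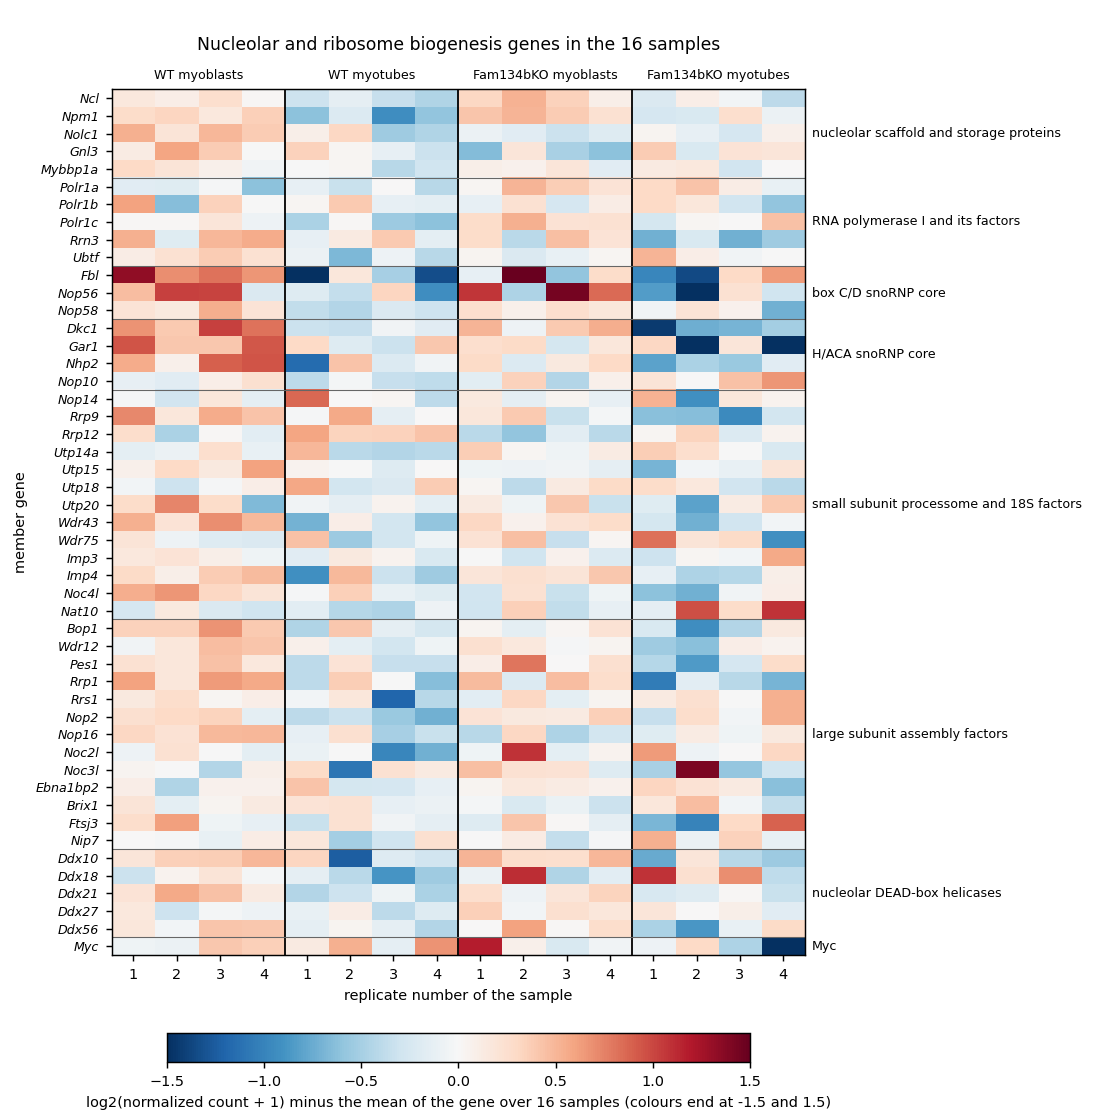
Heat map of the 49 nucleolar genes (rows, grouped by role) in the 16 samples (columns, 4 per group); colour is log2(normalized count + 1) minus the mean of the gene over all samples, ending at -1.5 and 1.5. WT myoblast columns are mostly red and WT myotube columns mostly blue, and single samples, such as Fam134bKO myoblasts replicate 2, stand out for a few genes.

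In WT cells, 14 of the 49 nucleolar genes (28.6%) were called lower in myotubes than in myoblasts at an adjusted p under 0.05, 1 (2.04%) was called higher and 34 were not called, where 9.16% of all tested genes were called lower and 13.8% higher. Of the 34 genes not called, 30 had negative fold changes, so that 44 of 49 were below 0. The median log2 fold change was -0.40 over the 49 genes and -0.01 over all tested genes. For 10 genes all WT myotube samples lay below all WT myoblast samples, and for 1 gene above, where 12.0% and 16.1% of all tested genes did so. The p-values came from limma with Benjamini-Hochberg adjustment over all tested genes. They measure only the spread between samples of a group, which the fit shares per gene over all 4 groups. Fitted on the WT samples alone, 34.7% of the 49 were called lower and 2.04% higher, against 13.6% and 17.4% of all tested genes. Each fit behind a call was also repeated 8 times, each time without 1 of the 8 samples of the 2 groups compared, and the number of these refits that kept the call is given beside it. In bulk RNA, fewer cells that express a gene and less of its RNA per cell cannot be told apart. The proliferation markers moved with this comparison, with 8 of 10 called lower, and their part in the result was not tested.

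In Fam134bKO cells fewer of the genes passed the test. Between Fam134bKO myoblasts and myotubes, 9 of 49 (18.4%) were called lower and 1 (2.04%) higher, where 16.1% and 17.3% of all tested genes were called, so the share of lower calls was near that of all genes. The median log2 fold change was -0.15 against -0.02 over all tested genes, and 36 of 49 were negative. Groups did not overlap for 4 genes, all lower, against 13.1% of all tested genes. All 10 proliferation markers were called lower here, and their part in the result was not tested. Fitted on the 8 Fam134bKO samples alone, 5 genes (10.2%) were called lower and none higher, against 11.7% and 13.9% of all tested genes. Without the shallow replicates 2 and 4 of the myotubes, 6 genes were called lower and 1 higher. These are 12.2% and 2.04% of the 49, both below the shares of all tested genes in that fit.

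Ncl, Npm1, Dkc1, Wdr43 and Rrp1 were called lower in both genotypes, which is 35.7% of the 14 lower calls in WT and 55.6% of the 9 in Fam134bKO cells. Over all tested genes, 58.8% of the lower calls in WT and 33.5% of those in Fam134bKO cells were shared. No gene was called in opposite directions. Fold changes were negative in both genotypes for 32 of 49 genes (65.3%), against 37.3% of all tested genes. The difference between the genotypes in this change was itself tested as an interaction, and limma called 0 of 49 genes, where 1.48% of all tested genes were called lower and 1.97% higher. Without adjustment, 8 genes had a p under 0.05, and the share of all tested genes under that cut was not counted. The 8 were Nolc1, Ubtf, Nop16, Nop10, Nat10, Nop2, Gnl3 and Rrs1, all with a less negative or a positive change in Fam134bKO cells. When each sample was weighted by its own spread, limma called 7 genes (14.3%), all in that direction, where that fit called 5.60% of all tested genes lower and 5.74% higher.

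**Figure D2:**
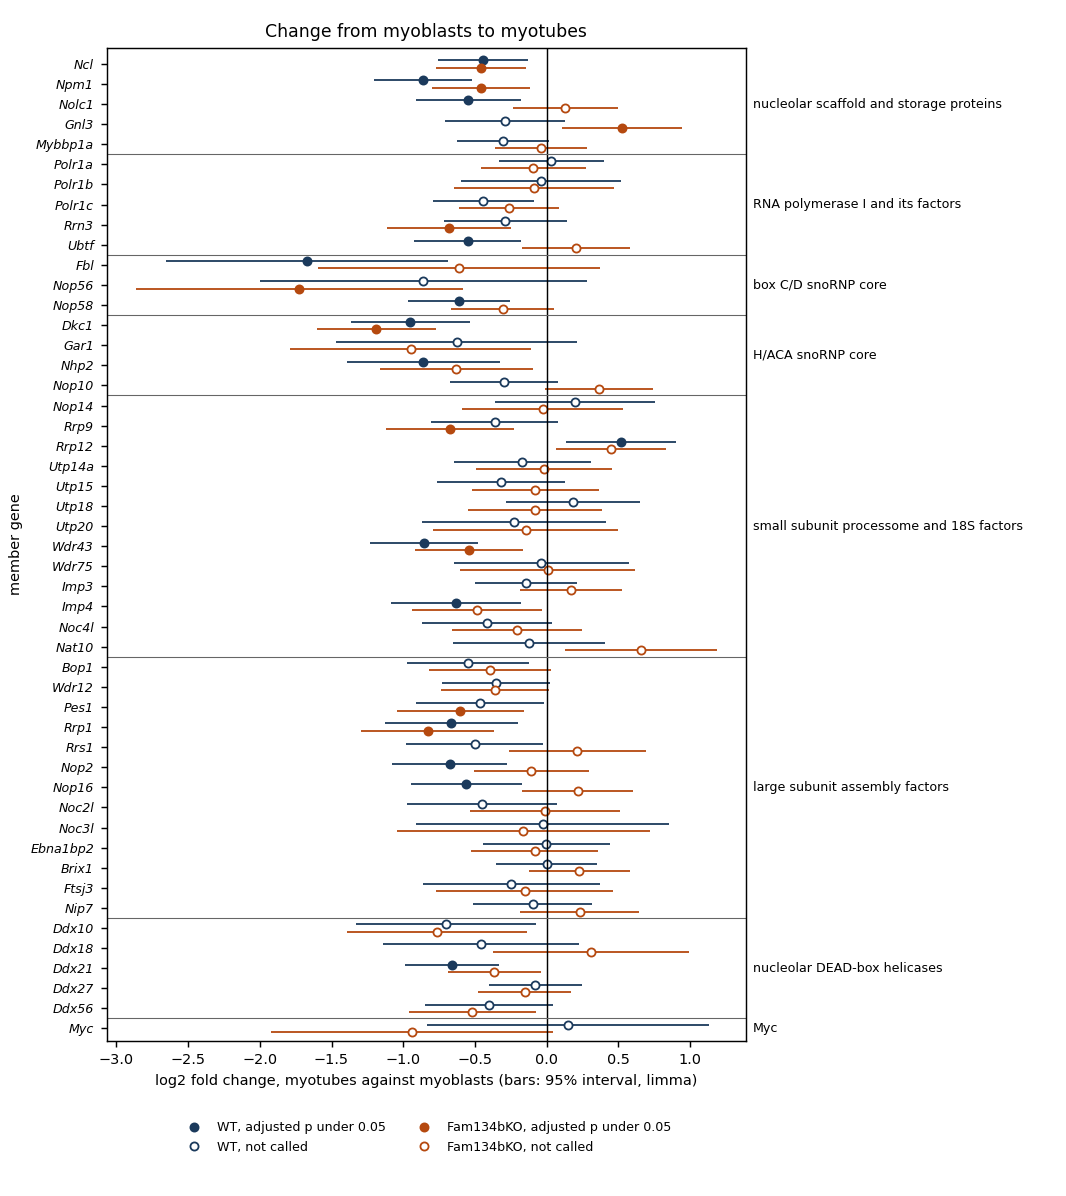
Log2 fold change from myoblasts to myotubes for each of the 49 genes (rows, by role), with 95% intervals from limma, for WT (blue) and Fam134bKO cells (orange); filled points passed an adjusted p of 0.05. In WT 14 filled points lie left of 0 and 1 right of it, and in Fam134bKO cells 9 and 1.

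The role named scaffold and storage proteins held 5 genes, Ncl, Npm1, Nolc1, Gnl3 and Mybbp1a. Among them Ncl, Npm1 and Nolc1 (60%) were called lower on differentiation in WT, against 9.16% of all tested genes. In Fam134bKO cells 40% were called lower and 20% higher, against 16.1% and 17.3%. Npm1 (ENSMUSG00000057113, chr11:33152287-33163206) encodes nucleophosmin, the chaperone of the granular component, and read 1615, 1673, 1488 and 1705 normalized counts in the 4 WT myoblast samples and 873, 1160.5, 698 and 886 in the 4 WT myotube samples. All 4 myotube samples were below all 4 myoblast samples, and the mean was 55.8% of that in myoblasts (log2 fold change -0.86, SE 0.16, adjusted p = 0.000694, kept in 8 of 8 refits). In Fam134bKO cells Npm1 read 1787, 1901, 1743 and 1565 in myoblasts and 1123, 1144, 1596 and 1261 in myotubes. The highest myotube sample, replicate 3, was above the lowest myoblast sample, and the fall was called (log2 fold change -0.46, SE 0.16, adjusted p = 0.0349, kept in 2 of 8 refits, adjusted p up to 0.0933 without Fam134bKO myotubes replicate 1). Between the genotypes, Npm1 was called higher in Fam134bKO myotubes than in WT myotubes (log2 fold change 0.51, SE 0.16, adjusted p = 0.0277, kept in 5 of 8 refits, adjusted p up to 0.117 without WT myotubes replicate 3), with replicate 2 of WT and replicates 1 and 2 of Fam134bKO overlapping, and the interaction was not called (adjusted p = 0.381). Of the last 500 bases of its transcripts, 29.1% of stretches of 31 bases also occur in other genes, so reads may have been split with copies.

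Ncl (ENSMUSG00000026234, chr1:86344719-86359400) encodes nucleolin, which binds nascent ribosomal RNA. It read 1897, 1826, 2018 and 1722 in WT myoblasts and 1372, 1541, 1334 and 1245 in WT myotubes. The groups did not overlap, and the change was called (log2 fold change -0.44, SE 0.15, adjusted p = 0.0391, kept in 1 of 8 refits, adjusted p up to 0.113 without WT myotubes replicate 4). In Fam134bKO cells Ncl read 2113, 2436, 2164 and 1809 in myoblasts and 1462, 1815, 1652 and 1289 in myotubes. Here myotube replicate 2 just passed myoblast replicate 4, and the fall was of the same size (log2 fold change -0.46, SE 0.15, adjusted p = 0.0244, kept in 3 of 8 refits, adjusted p up to 0.0687 without Fam134bKO myotubes replicate 4).

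Nolc1 (ENSMUSG00000015176, chr19:46075863-46085530), a chaperone of snoRNPs, read 385, 305, 376 and 348 in WT myoblasts and 282, 330.1, 184 and 195 in WT myotubes. Replicate 2 of the myotubes was above replicate 2 of the myoblasts, and the fall was called (log2 fold change -0.55, SE 0.18, adjusted p = 0.0293, kept in 3 of 8 refits, adjusted p up to 0.111 without WT myotubes replicate 3). Fam134bKO samples read 250.2, 236, 213 and 234 as myoblasts and 274, 245, 223 and 282 as myotubes, a narrow band with no call (log2 fold change 0.13, SE 0.18, adjusted p = 0.604). Fam134bKO myoblasts were thus all below WT myoblasts, and this difference was called (log2 fold change -0.59, SE 0.18, adjusted p = 0.0232, kept in 3 of 8 refits, adjusted p up to 0.0712 without WT myoblasts replicate 1); it shares its WT myoblast samples with the WT differentiation comparison. Gnl3, the nucleostemin GTPase of proliferating cells, had a mean of 397 ± 119.6 normalized counts (SD, n = 4) in Fam134bKO myoblasts against 619 ± 114 (SD, n = 4) in WT ones, and was called lower (log2 fold change -0.67, SE 0.20, adjusted p = 0.0259, kept in 3 of 8 refits, adjusted p up to 0.0962 without WT myoblasts replicate 2). With 561 ± 95.1 (SD, n = 4) in Fam134bKO myotubes it was also the 1 gene called higher on their differentiation (log2 fold change 0.53, SE 0.20, adjusted p = 0.0484, kept in 2 of 8 refits, adjusted p up to 0.145 without Fam134bKO myoblasts replicate 1), a call lost without the filter on low values, under total scaling, under quantile normalization and with a replicate block. Mybbp1a, a nucleolar Myb-binding protein, had log2 fold changes of -0.30 in WT and -0.04 in Fam134bKO cells and was not called.

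Of the 5 genes of RNA polymerase I and its factors, 1 was called lower in WT and another in Fam134bKO cells. Each is 20% of the 5, where 9.16% of all tested genes were called lower in WT and 16.1% in Fam134bKO cells. Ubtf (ENSMUSG00000020923, chr11:102304560-102319742) encodes the factor that keeps ribosomal DNA open, and read 127, 139, 154 and 138 in WT myoblasts and 111, 73.8, 112 and 88.2 in WT myotubes. The groups did not overlap, and the fall was called (log2 fold change -0.55, SE 0.18, adjusted p = 0.0317, kept in 3 of 8 refits, adjusted p up to 0.095 without WT myoblasts replicate 3). Fam134bKO samples read 122, 101, 109 and 120.1 as myoblasts and 168, 127, 113 and 118 as myotubes, with replicate 1 of the myotubes highest of all 16. No fall was called there (log2 fold change 0.20, SE 0.18, adjusted p = 0.405), and the interaction had the smallest adjusted p of the 49 genes without passing (log2 fold change 0.75, SE 0.25, adjusted p = 0.113).

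Rrn3 (ENSMUSG00000022682, chr16:13780708-13814839), which recruits the polymerase to its promoter and whose own promoter held 2 E-boxes, read 331, 203, 324 and 338 in WT myoblasts and 209.8, 252, 301 and 207 in WT myotubes. Replicate 2 of the WT myoblasts was lowest of the 8, the groups overlapped and no change was called (log2 fold change -0.29, SE 0.21, adjusted p = 0.337). In Fam134bKO cells it read 276, 173, 314 and 264 in myoblasts and 138, 196, 139 and 158 in myotubes. The myotube samples were low but for replicate 2, which passed the lowest myoblast sample, and the fall was called (log2 fold change -0.68, SE 0.21, adjusted p = 0.0152, kept in 7 of 8 refits, adjusted p up to 0.058 without Fam134bKO myoblasts replicate 3). All 4 Fam134bKO myotube samples lay below all 4 WT myotube samples (log2 fold change -0.62, SE 0.21, adjusted p = 0.0356, kept in 3 of 8 refits, adjusted p up to 0.125 without WT myotubes replicate 3). The interaction was not called (adjusted p = 0.52).

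Polr1a (ENSMUSG00000049553, chr6:71909053-71984935), the largest subunit of the polymerase, was not called on differentiation in either genotype (log2 fold change 0.03, SE 0.18, adjusted p = 0.922 in WT). It read 161, 160.1, 179 and 118 in WT myoblasts and 185, 259, 234 and 209 in Fam134bKO myoblasts. All 4 Fam134bKO samples were above all 4 WT samples, and Polr1a was the 1 gene called higher in Fam134bKO myoblasts (log2 fold change 0.52, SE 0.18, adjusted p = 0.048, kept in 2 of 8 refits, adjusted p up to 0.183 without WT myoblasts replicate 4). The values in myotubes were 167, 144, 182 and 136 for WT and 224, 245, 196 and 168 for Fam134bKO cells, and there the groups overlapped (log2 fold change 0.40, SE 0.18, adjusted p = 0.109). The subunits Polr1b and Polr1c were called in none of the comparisons, with log2 fold changes in WT of -0.04 and -0.44.

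All 7 core proteins of the snoRNPs had negative fold changes on differentiation in WT, and 4 of them were called. These were 2 of 3 box C/D and 2 of 4 H/ACA proteins (66.7% and 50%), against 9.16% of all tested genes called lower. In Fam134bKO cells all 3 box C/D and 3 of 4 H/ACA proteins were negative. There 1 of each group was called lower (33.3% and 25%), against 16.1% of all tested genes. Dkc1 (ENSMUSG00000031403, chrX:75095854-75109777) encodes dyskerin, the pseudouridine synthase of H/ACA snoRNPs, and read 370.0, 304, 474 and 407 in WT myoblasts and 186, 182, 223 and 205 in WT myotubes. The groups were well apart, and the mean in myotubes was 51.1% of that in myoblasts (log2 fold change -0.95, SE 0.20, adjusted p = 0.00159, kept in 8 of 8 refits). Fam134bKO samples read 329.8, 220.0, 305 and 339.5 as myoblasts and 85.2, 139, 143 and 162 as myotubes. The groups were again apart, with a mean of 44.3% (log2 fold change -1.19, SE 0.20, adjusted p = 0.0001, kept in 8 of 8 refits), the smallest adjusted p of any of the 49 genes in that comparison. Dkc1 was also lower in Fam134bKO than in WT myotubes, with no overlap (log2 fold change -0.62, SE 0.20, adjusted p = 0.0279, kept in 5 of 8 refits, adjusted p up to 0.106 without Fam134bKO myotubes replicate 1).

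Of the other H/ACA proteins, Nhp2, which binds the guide RNA, went from 1496 ± 381 (SD, n = 4) to 861 ± 349 normalized counts (SD, n = 4) in WT (log2 fold change -0.86, SE 0.26, adjusted p = 0.0196, kept in 5 of 8 refits, adjusted p up to 0.0924 without WT myotubes replicate 1), with overlap between the groups. Nop10 (ENSMUSG00000027133, chr2:112261926-112263269), the smallest core protein, read 429.9, 555, 444 and 436 in WT myotubes and 645, 565, 767 and 899 in Fam134bKO myotubes. Every Fam134bKO sample was above every WT sample, and the difference was called (log2 fold change 0.61, SE 0.18, adjusted p = 0.0184, kept in 6 of 8 refits, adjusted p up to 0.0592 without Fam134bKO myotubes replicate 4). Nop10 and Dkc1, which sit in one particle, were thus called in opposite directions in Fam134bKO against WT myotubes. The myoblast values of Nop10 were 520.4, 502, 605 and 667 for WT and 509, 718, 416 and 596 for Fam134bKO cells and overlapped (log2 fold change -0.05, SE 0.18, adjusted p = 0.894). Gar1, the remaining core protein, was not called, with -0.63 in WT and -0.95 in Fam134bKO cells on the log2 scale.

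Fbl (ENSMUSG00000046865, chr7:28169710-28179269) encodes fibrillarin, the methyltransferase of box C/D snoRNPs, and read 61.8, 39.5, 43.0 and 38.3 in WT myoblasts and 7.77, 27.0, 16.7 and 8.92 in WT myotubes. The groups did not overlap, and the fold change was the most negative of the 49 genes in WT (log2 fold change -1.67, SE 0.47, adjusted p = 0.0145, kept in 6 of 8 refits, adjusted p up to 0.0616 without WT myotubes replicate 1). In Fam134bKO cells it read 21.9, 68.9, 15.6 and 29.2 in myoblasts and 11.6, 8.76, 29.7 and 38.0 in myotubes. Replicate 2 of the myoblasts was far above the others, the groups overlapped and nothing was called (log2 fold change -0.61, SE 0.47, adjusted p = 0.338). These values rest on 6 to 83 reads per sample, and 72.6% of the end of the Fbl transcripts is shared with other genes, so its level is uncertain.

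Nop56 (ENSMUSG00000027405, chr2:130274430-130279313) and Nop58 (ENSMUSG00000026020, chr1:59684971-59719044) are the paired scaffold proteins of the same particle. Nop58 read 511, 494, 651 and 512 in WT myoblasts and 344, 327, 381 and 359 in WT myotubes. The groups were apart and the fall was called (log2 fold change -0.61, SE 0.17, adjusted p = 0.014, kept in 7 of 8 refits, adjusted p up to 0.0625 without WT myoblasts replicate 3). Fam134bKO samples read 530.2, 467, 528 and 499 as myoblasts and 429.9, 512, 467 and 269.8 as myotubes, where replicate 4, the shallowest library, was lowest and no fall was called (log2 fold change -0.31, SE 0.17, adjusted p = 0.175). Nop56 read 27.7, 41.5, 41.0 and 16.9 in WT myoblasts and 17.3, 15.3, 25.1 and 9.91 in WT myotubes, with overlap and no call (log2 fold change -0.86, SE 0.55, adjusted p = 0.275). In Fam134bKO cells it read 42.9, 14.1, 55.5 and 36.7 in myoblasts and 10.6, 1.46, 23.4 and 15.99 in myotubes. Replicate 2 of the myotubes held 1 read, and the fall was called (log2 fold change -1.72, SE 0.55, adjusted p = 0.0197, kept in 5 of 8 refits, adjusted p up to 0.068 without Fam134bKO myotubes replicate 2), with leave-one-out values from -2.13 to -1.03. Of the end of its transcripts, 39.5% is shared with other genes.

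**Figure D3:**
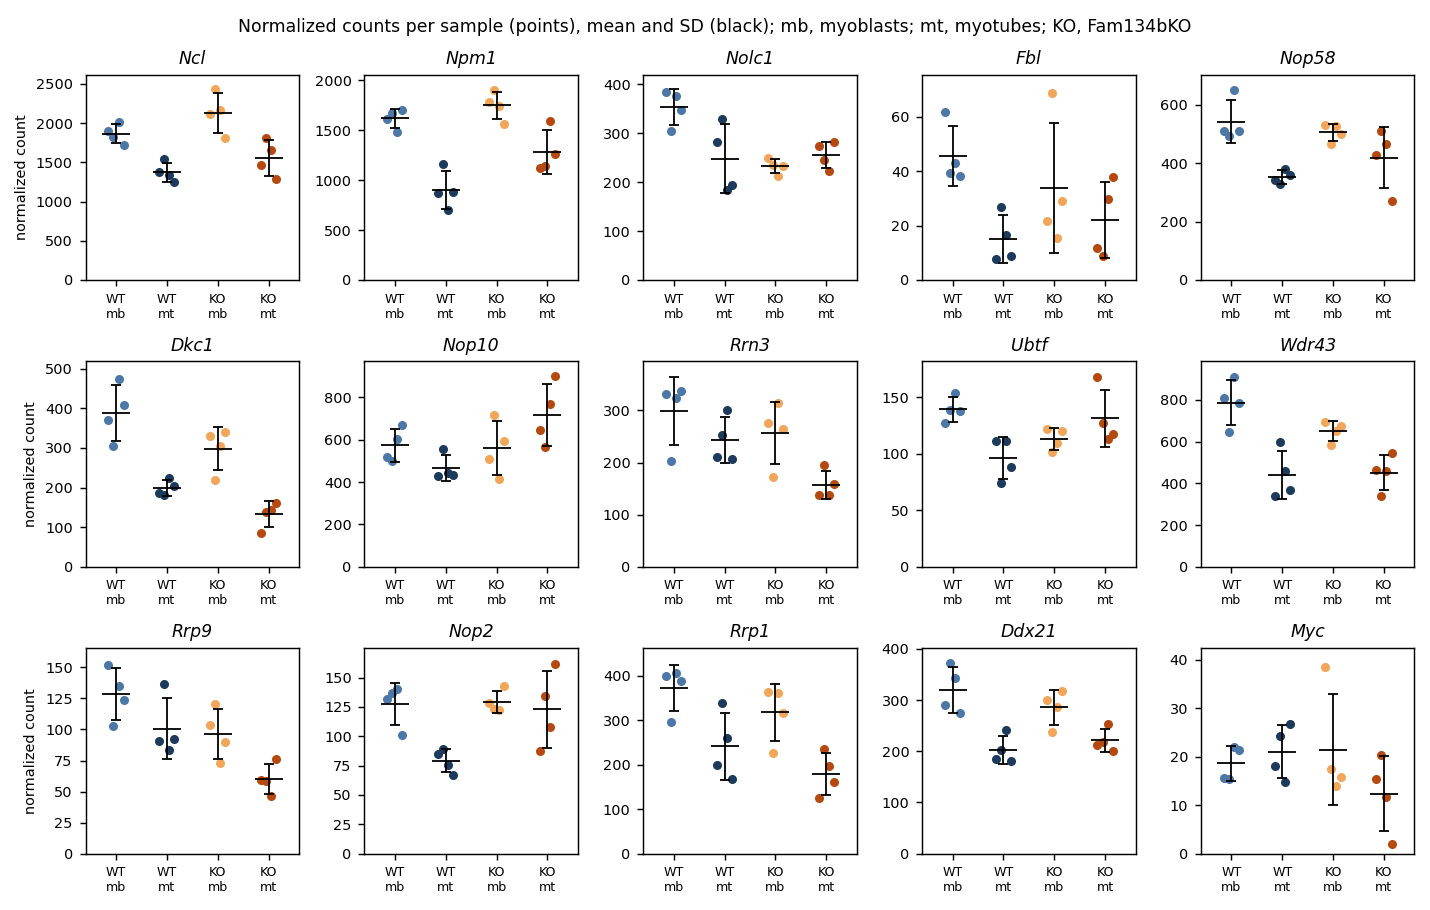
Normalized counts of 15 named genes in each sample (points), with the mean and SD of each group of 4 (black); every axis starts at 0. Dkc1 and Wdr43 fall from myoblasts to myotubes in both genotypes without overlap, while Ubtf and Nop2 fall only in the WT panel by the test, a difference that did not pass the interaction test.

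Among the 13 genes of the small subunit processome and 18S maturation, 2 were called lower and 1 higher in WT, and 2 lower in Fam134bKO cells. In WT these are 15.4% and 7.69%, where 9.16% and 13.8% of all tested genes were called lower and higher. In Fam134bKO cells 15.4% were called lower, against 16.1% of all tested genes. Wdr43 (ENSMUSG00000041057, chr17:71615895-71659031), a processome protein whose promoter held an E-box, read 808, 645, 908 and 783 in WT myoblasts and 340.2, 596, 460.0 and 369.5 in WT myotubes. The groups did not overlap (log2 fold change -0.86, SE 0.18, adjusted p = 0.0018, kept in 8 of 8 refits). Fam134bKO samples read 691, 582, 649.8 and 674 as myoblasts and 466, 337, 459 and 544 as myotubes. Those groups did not overlap either (log2 fold change -0.54, SE 0.18, adjusted p = 0.0259, kept in 4 of 8 refits, adjusted p up to 0.0919 without Fam134bKO myotubes replicate 2), and the mean fell to 56.1% of myoblasts in WT and 69.5% in Fam134bKO cells.

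Rrp9 (ENSMUSG00000041506, chr9:106475963-106485424) binds the U3 snoRNP, which guides the first cuts. It read 152, 103, 135 and 124 in WT myoblasts and 90.7, 137, 83.6 and 92.1 in WT myotubes, where replicate 2 was far above the other 3 and no change was called (log2 fold change -0.36, SE 0.21, adjusted p = 0.235). In Fam134bKO cells it read 103, 120.4, 72.9 and 90.1 in myoblasts and 59.1, 58.4, 46.8 and 75.9 in myotubes. Replicate 4 of the myotubes was just above the lowest myoblast sample, and the fall was called (log2 fold change -0.67, SE 0.21, adjusted p = 0.019, kept in 5 of 8 refits, adjusted p up to 0.0613 without Fam134bKO myoblasts replicate 2). All Fam134bKO myotube samples were below all WT myotube samples (log2 fold change -0.73, SE 0.21, adjusted p = 0.0166, kept in 6 of 8 refits, adjusted p up to 0.0607 without WT myotubes replicate 2).

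Rrp12, an export factor of pre-ribosomes, was the 1 nucleolar gene called higher on differentiation in WT, from 107 ± 22.6 (SD, n = 4) to 151 ± 13.0 (SD, n = 4), with no overlap (log2 fold change 0.52, SE 0.18, adjusted p = 0.0471, kept in 2 of 8 refits, adjusted p up to 0.158 without WT myoblasts replicate 2). This call was lost without the filter on low values, under total scaling, under quantile normalization and with a replicate block, and the fold change in Fam134bKO cells was 0.45 without a call. Imp4, a U3 protein, was called lower in WT (log2 fold change -0.64, SE 0.22, adjusted p = 0.0396, kept in 2 of 8 refits, adjusted p up to 0.173 without WT myotubes replicate 1) with replicate 2 of the myotubes at the height of the myoblasts. Nat10, the enzyme that acetylates cytidines of the 18S RNA, was called higher in Fam134bKO than in WT myotubes (log2 fold change 0.83, SE 0.26, adjusted p = 0.0225, kept in 4 of 8 refits, adjusted p up to 0.0755 without Fam134bKO myotubes replicate 4), from 50.1 ± 6.83 (SD, n = 4) to 94.6 ± 35.9 (SD, n = 4). The shallow replicates 2 and 4 were the highest of the Fam134bKO samples, and replicate 1 overlapped WT. The other 8 genes of this role, Nop14, Utp14a, Utp15, Utp18, Utp20, Wdr75, Imp3 and Noc4l, were called in none of the comparisons, with log2 fold changes from -0.42 in Noc4l to 0.20 in Nop14 in WT.

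All 13 large subunit assembly factors had negative fold changes on differentiation in WT, and 3 were called, Nop2, Rrp1 and Nop16. These 3 are 23.1%, against 9.16% of all tested genes called lower. The median log2 fold change was -0.45 over the 13 and -0.01 over all tested genes. In Fam134bKO cells 9 of 13 were negative, with medians of -0.11 and -0.02. There 2 (15.4%) were called lower, against 16.1% of all tested genes. Nop2 (ENSMUSG00000038279, chr6:125131909-125144753), a methyltransferase of the 28S RNA with an E-box in its promoter, read 132, 137, 140.1 and 101 in WT myoblasts and 84.6, 89.1, 75.3 and 67.4 in WT myotubes. The groups did not overlap (log2 fold change -0.68, SE 0.19, adjusted p = 0.015, kept in 6 of 8 refits, adjusted p up to 0.0543 without WT myotubes replicate 4). In Fam134bKO cells it read 129, 123, 122 and 143 in myoblasts and 87.1, 134, 108 and 162 in myotubes. The myotube samples lay below, within and above the range of the myoblasts, with no call (log2 fold change -0.11, SE 0.19, adjusted p = 0.704). In myotubes Nop2 was called higher in Fam134bKO than in WT cells (log2 fold change 0.60, SE 0.19, adjusted p = 0.0285, kept in 4 of 8 refits, adjusted p up to 0.0942 without Fam134bKO myotubes replicate 4), with 1 Fam134bKO sample, replicate 1, within the range of WT.

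Rrp1 (ENSMUSG00000061032, chr10:78400384-78413043), an early assembly factor, read 400.5, 296, 407 and 389 in WT myoblasts and 199, 339, 260.2 and 168 in WT myotubes. Replicate 2 was highest of the WT myotubes and lowest of the WT myoblasts, so the groups overlapped, and the fall was called (log2 fold change -0.66, SE 0.22, adjusted p = 0.037, kept in 2 of 8 refits, adjusted p up to 0.14 without WT myotubes replicate 4). Fam134bKO samples read 365, 227, 363 and 316 as myoblasts and 126, 235, 197 and 162 as myotubes. Again replicate 2 made the overlap, and the fall was called (log2 fold change -0.83, SE 0.22, adjusted p = 0.00697, kept in 8 of 8 refits).

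Nop16 (ENSMUSG00000025869, chr13:54584185-54590090), a factor of the 60S subunit, read 326, 305, 367 and 371 in WT myoblasts and 240.0, 309, 185 and 207 in WT myotubes. Only replicate 2 of the myotubes reached the myoblasts, and the fall was called (log2 fold change -0.56, SE 0.19, adjusted p = 0.0344, kept in 2 of 8 refits, adjusted p up to 0.115 without WT myotubes replicate 3). Fam134bKO myoblasts read 195, 325, 190.0 and 216, below WT myoblasts but for replicate 2 (log2 fold change -0.59, SE 0.19, adjusted p = 0.0323, kept in 2 of 8 refits, adjusted p up to 0.114 without Fam134bKO myoblasts replicate 3). Fam134bKO myotubes read 230.4, 285, 251 and 289.7, with no call on differentiation (log2 fold change 0.22, SE 0.19, adjusted p = 0.39). Pes1, of the PeBoW complex with Bop1 and Wdr12, was called lower in Fam134bKO cells (log2 fold change -0.60, SE 0.21, adjusted p = 0.0348, kept in 4 of 8 refits, adjusted p up to 0.126 without Fam134bKO myotubes replicate 2) and not in WT (log2 fold change -0.47, SE 0.21, adjusted p = 0.122). Its partners were not called, at -0.55 for Bop1 and -0.35 for Wdr12 in WT, and -0.40 and -0.36 in Fam134bKO cells. The remaining 7, Rrs1, Noc2l, Noc3l, Ebna1bp2, Brix1, Ftsj3 and Nip7, were called in none, with WT values from -0.50 in Rrs1 to close to 0 in Ebna1bp2 and Brix1. Noc2l shares 20.9% of its exon bases with Samd11 on the opposite strand, and whether reads were counted by strand is not given in the sources used here.

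Of the 5 nucleolar DEAD-box helicases, which unwind pre-ribosomal RNA, Ddx21 was called. It was lower in WT, which is 20% of the 5, against 9.16% of all tested genes. In Fam134bKO cells 0% were called, against 16.1% lower and 17.3% higher. Ddx21 (ENSMUSG00000020075, chr10:62580251-62602281), which also binds transcribed ribosomal DNA, read 291, 372, 342 and 275 in WT myoblasts and 185, 203, 241 and 180.3 in WT myotubes. The groups did not overlap (log2 fold change -0.66, SE 0.16, adjusted p = 0.00458, kept in 8 of 8 refits). Fam134bKO samples read 300.1, 238, 286 and 318 as myoblasts and 212, 219, 254 and 199.8 as myotubes. These overlapped, and the change did not pass (log2 fold change -0.37, SE 0.16, adjusted p = 0.0771). Ddx10, Ddx27 and Ddx56 had values of -0.70, -0.08 and -0.40 in WT and were not called. Ddx18, at -0.46, shares 66.8% of the end of its transcripts with other genes.

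Myc itself (ENSMUSG00000022346, chr15:61985391-61990374) read 15.7, 15.4, 22.02 and 21.4 in WT myoblasts and 18.1, 24.3, 14.9 and 26.7 in WT myotubes, on 16 to 27 reads per sample. The groups overlapped, and no change was called (log2 fold change 0.15, SE 0.47, adjusted p = 0.86, 95% interval -0.83 to 1.13). In Fam134bKO cells it read 38.5, 17.4, 13.9 and 15.9 in myoblasts and 15.5, 20.4, 11.7 and 2.0 in myotubes. Replicate 1 of the myoblasts was far above the rest and replicate 4 of the myotubes rested on 1 read. With all samples no comparison called Myc, although without replicate 2 of the Fam134bKO myotubes it was called lower there than in Fam134bKO myoblasts (log2 fold change -1.27, adjusted p = 0.0410) and than in WT myotubes (log2 fold change -1.33, adjusted p = 0.0429). With all samples its log2 fold changes were -0.94 (SE 0.47, adjusted p = 0.131) on differentiation of Fam134bKO cells and -0.996 (SE 0.47, adjusted p = 0.134) against WT in myotubes. Without replicate 4 of the Fam134bKO myotubes, limma gave -0.33 (adjusted p = 0.505) and -0.38 (adjusted p = 0.480) for these.

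Between the genotypes, few of the nucleolar genes were called at either stage. In myoblasts, 3 of 49 (6.12%) were lower in Fam134bKO cells and 1 (2.04%) higher, where 8.50% and 7.26% of all tested genes were called. These were Nolc1, Gnl3 and Nop16, and Polr1a on the higher side. In myotubes, 3 (6.12%), Rrn3, Dkc1 and Rrp9, were lower and 4 (8.16%), Npm1, Nop10, Nat10 and Nop2, higher, where 13.7% and 9.74% of all tested genes were called. In this fit the shares called were below those of all genes in each case. Under some other settings the share called higher in myotubes was above that of all tested genes. It was 14.3% against 10.2% with sample weights, 12.2% against 9.72% with a replicate block and 10.2% against 9.82% under total scaling. The share called lower in myotubes was 6.12% against 14.5%, 13.6% and 13.6% in these fits. In myoblasts the share called lower was 6.12% against 5.92% without the filter on low values. Groups did not overlap for 5 genes lower and 2 higher in Fam134bKO myoblasts, where 14.0% and 12.8% of all tested genes did not, and for 3 lower and 2 higher in Fam134bKO myotubes, where 10.8% and 8.52% did not. The median log2 fold change was -0.09 in myoblasts and 0.08 in myotubes, against -0.01 and -0.07 over all tested genes. In myoblasts it ranged from -0.12 to -0.03 over the other settings and left-out samples, with -0.03 under total scaling, where that of all tested genes was 0.04. In myotubes it ranged from 0.02, without WT myotubes replicate 4, to 0.17, with sample weights. The genotype comparisons share their WT samples with the differentiation comparison in WT.

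The calls between genotypes were not firm. Fitted on the 8 samples compared alone, myotubes gave 1 call, higher (2.04%), where 8.37% of all tested genes were called lower and 6.17% higher. Myoblasts gave 7 calls, 12.2% lower and 2.04% higher, against 13.1% and 11.6%. Quantile normalization gave 3 lower (6.12%) and 7 higher (14.3%) in myotubes, against 12.4% and 11.8%. No gene of the 49 was called between genotypes at an adjusted p under 0.01, a cut for which all tested genes were not counted. Myotube markers were lower in Fam134bKO cells for 7 of 8 genes in myoblasts and 6 of 8 in myotubes, and proliferation markers for 2 of 10 and 8 of 10; their part in these values was not tested.

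**Figure D4:**
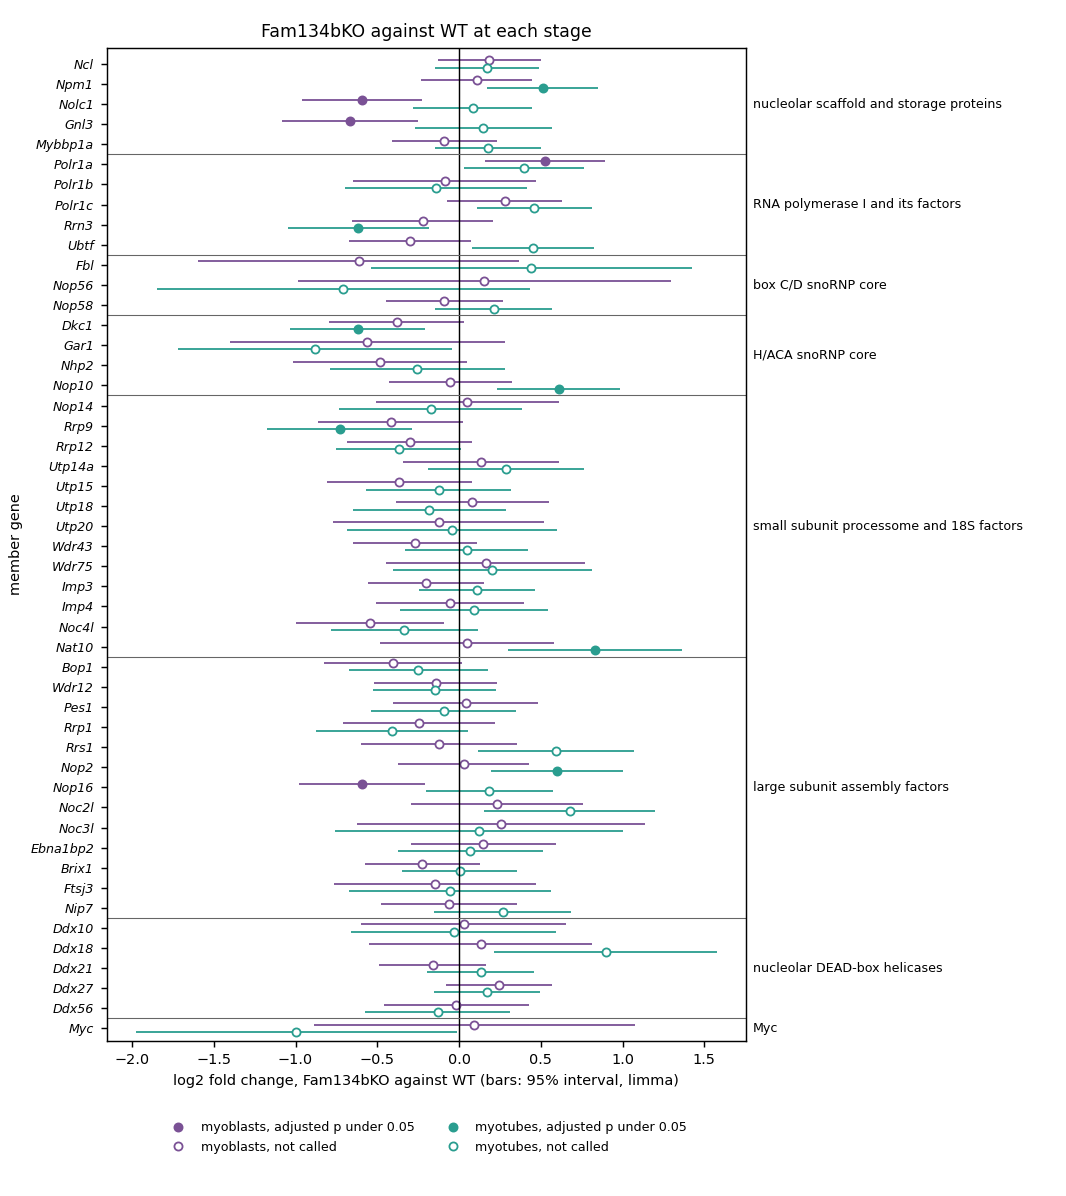
Log2 fold change of Fam134bKO against WT for each of the 49 genes (rows, by role), with 95% intervals from limma, in myoblasts (purple) and myotubes (green); filled points passed an adjusted p of 0.05. The points lie on both sides of 0 at both stages, with 4 filled in myoblasts and 7 in myotubes.

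To set the samples side by side, each gene was centred on its mean over the 16 samples and the median over the 49 genes was taken per sample. This median was 0.20 ± 0.0767 (SD, n = 4) in WT myoblasts, -0.15 ± 0.134 (SD, n = 4) in WT myotubes, 0.09 ± 0.0560 (SD, n = 4) in Fam134bKO myoblasts and -0.07 ± 0.0726 (SD, n = 4) in Fam134bKO myotubes. WT myotubes ranged from -0.30 in replicate 4 to 0.01 in replicate 2, and all of them lay below all WT myoblasts. The means of the Fam134bKO groups lay between those of the WT groups. The Fam134bKO myotube samples, from -0.18 to -0.04, were within the range of the WT myotubes, and replicate 2 of the Fam134bKO myoblasts (0.15) was above replicate 4 of the WT myoblasts (0.13). Fam134bKO myoblasts and myotubes did not overlap with each other. The summed proliferation markers had another order, with Fam134bKO myotubes below WT myotubes in every sample.

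**Figure D5:**
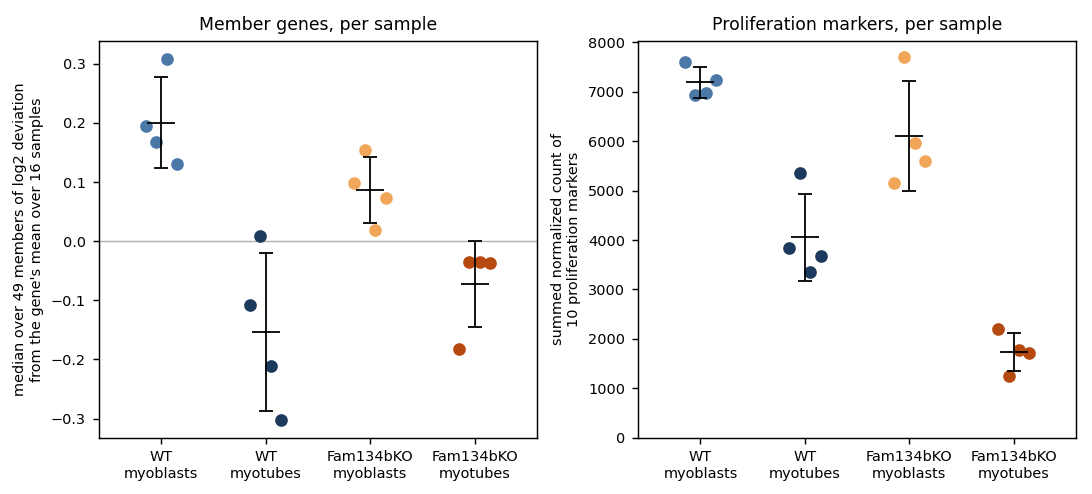
Left, the median over the 49 genes of the log2 deviation from the mean of each gene, per sample; right, the summed normalized count of 10 proliferation markers per sample, with the mean and SD of each group of 4 in black. The mean of the nucleolar medians is lowest in WT myotubes (-0.15), whose range covers that of Fam134bKO myotubes, while the proliferation markers are lowest in Fam134bKO myotubes (1246 to 2190).

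Wider lists of the same pathway were counted beside the 49 genes. Of 37 tested factors of the small subunit, 5 were called lower by limma on differentiation in WT, with no higher call, and 4 lower and 2 higher in Fam134bKO cells. In WT, 10 had an unadjusted p under 0.05 in either direction, a cut for which all tested genes were not counted. Of this list, 13.5% were thus called lower in WT, against 9.16% of all tested genes, and 10.8% lower and 5.41% higher in Fam134bKO cells, against 16.1% and 17.3%. Ddx52, a helicase, had the smallest adjusted p in WT (log2 fold change -0.71, SE 0.18, adjusted p = 0.00744), and Nol6, a processome protein, in Fam134bKO cells, where it was higher (log2 fold change 0.89, SE 0.22, adjusted p = 0.00313). Of 39 factors of the large subunit, 7 were lower in WT, led by Eif6, which keeps free 60S subunits from joining (log2 fold change -0.98, SE 0.22, adjusted p = 0.00313), and 6 lower and 1 higher in Fam134bKO cells, led by Pelp1 (log2 fold change -0.88, SE 0.18, adjusted p = 0.000945). Of the large subunit list, 17.9% were thus called lower in WT, and 15.4% lower and 2.56% higher in Fam134bKO cells. The medians over the small and large subunit lists were -0.30 and -0.32 in WT and -0.16 and -0.26 in Fam134bKO cells.

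Among 10 tested factors of RNA polymerase I, 2 (20%) were lower in WT and 1 (10%) in Fam134bKO cells, where 9.16% and 16.1% of all tested genes were. Tcof1, the treacle protein of ribosomal DNA transcription, was called in both. Tcof1 read 175, 138, 194 and 163 in WT myoblasts and 64.8, 65.7, 74.3 and 40.6 in WT myotubes. It read 223, 175, 212 and 197 in Fam134bKO myoblasts and 55.2, 77.3, 95.4 and 38.0 in Fam134bKO myotubes. Neither pair of groups overlapped, and its fall was larger than that of any called gene of the 49 but Fbl in WT and Nop56 in Fam134bKO cells (log2 fold change -1.46, SE 0.24, adjusted p = 0.000187 in WT and log2 fold change -1.66, SE 0.24, adjusted p = 2.05e-05 in Fam134bKO cells).

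Of 9 tested snoRNP assembly factors, 3 were lower in WT, led by Nufip1 (log2 fold change -0.72, SE 0.20, adjusted p = 0.0122), and 1, Znhit6, was higher in Fam134bKO cells. Of this list 33.3% were thus called lower in WT, against 9.16% of all tested genes. In Fam134bKO cells 0% were lower and 11.1% higher, against 16.1% and 17.3%. Znhit6, which assembles box C/D snoRNPs, read 111, 107, 135 and 139.9 in WT myoblasts and 88.1, 129.5, 102 and 99.1 in WT myotubes, which overlapped (log2 fold change -0.24, SE 0.17, adjusted p = 0.344). It read 102, 90.5, 92.8 and 102 in Fam134bKO myoblasts and 222, 259.7, 257 and 329.7 in Fam134bKO myotubes. The last group stood above all other samples, with log2 fold change 1.44, SE 0.17, adjusted p = 1.63e-06, and the interaction of genotype and differentiation was called (log2 fold change 1.68, SE 0.24, adjusted p = 0.000198).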

How the data were processed

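Total RNA of 16 C2C12 samples was sequenced as mRNA libraries, and gene values were deposited as 1 table. Per the labels and methods, the authors used bcl2fastq, bbduk, STAR 2.6.0a and HTSeq-counts 0.9.1 on mm10. The deposited table holds log2 values, for which the authors' gene counts were divided by a factor per sample, 1 was added and the log2 taken. This was read from the values, of which 100% are whole multiples of 1 step per sample within a tolerance of 0.02. The reads so recovered gave the depth. A value of 0 allows up to 3 reads, 2.49 to 5.99 normalized counts by sample, and this floor covers counting error only.

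Groups were taken from the titles, since the genotype field of the labels reads unknown. A gene was tested if 4 or more samples had a normalized count of 10 or more, which 10767 genes met. The test was run with limma 3.58.1 in R 4.3.3, on the deposited log2 values, in 1 model of 4 group means with a trended empirical Bayes spread. A gene was called where the p after Benjamini-Hochberg adjustment was under 0.05. No column was left unused. The 49 genes, their roles and all other lists were chosen with earlier results of these data known. Per-sample values are printed for Myc, Ncl, Npm1 and Fbl and, in each role, for the called gene with the smallest adjusted p in each comparison. Genes of other lists are named where they have the smallest adjusted p of their list.

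Replicate numbers are shared across groups. Same-numbered samples of different groups had a mean correlation of 0.0330 in their deviations (24 pairs, 10 above 0.1). Other pairs had a mean of -0.0108 (72 pairs, 17 above 0.1). With both means near 0 the numbers were not taken to pair samples, and a replicate block was tried as another setting. Positions are from GENCODE M21 (GRCm38, the same assembly as mm10) and promoter windows from RefSeq. Sharing of transcript ends was counted over stretches of 31 bases in the last 500 bases. The settings tried instead were a pseudocount of 0.5 or 5, a minimum of 50 or none, scaling by total, by median ratio or by quantiles, a block for the replicate number, weights per sample, a fit of the compared groups alone, thresholds of 0.01 or of a 2-fold change, and leaving out each sample. Scaling by median ratio gave the same counts and medians as the deposited scale in every comparison, so it was no separate check.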

Additional observations from a re-analysis of the deposited data

Results flagged for a closer look

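In 19 of 196 sets of 4 samples (9.69%), 1 sample stood apart from its group in 1 nucleolar gene, by a gap to its nearest neighbour that was large against the whole range of the group (Dixon's test at 95%). Chance alone flags about 1 set in 20. The gaps are given as a share of the range.

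Of these, 4 were in replicate 2 of the Fam134bKO myoblasts, always the highest sample, with a gap of 0.852 for Gnl3 (574 against 360.0 normalized counts in the next sample), 0.83 for Polr1c (552 against 461), 0.889 for Noc2l (749 against 367) and 0.852 for Ddx18 (91.3 against 39.4). Another 4 were in replicate 2 of the WT myoblasts, with gaps of 0.9 for Rrn3 (203, lowest), 0.84 for Rrp1 (296, lowest), 0.934 for Ebna1bp2 (92.6, lowest) and 0.837 for Nat10 (67.5, highest). In replicate 2 of the WT myotubes the gaps were 0.886 for Nop10 (555, highest), 0.84 for Rrp9 (137, highest), 0.935 for Pes1 (428, highest) and 0.835 for Noc3l (5.40, lowest). Replicate 3 of the WT myoblasts was highest for Nop58 (651, gap 0.887), Utp14a (76.1, gap 0.863) and Bop1 (1267, gap 0.866).

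Replicate 1 of the WT myotubes was highest for Utp14a (89.8, gap 0.972) and Ebna1bp2 (171, gap 0.838). In Fam134bKO myotubes, replicate 2 was highest for Noc3l (35.0, gap 0.93). Myc was highest in replicate 1 of the Fam134bKO myoblasts (38.5, gap 0.856).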

How the results depend on the processing

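With sample weights the count went from 15 to 31 on differentiation in WT (30 lower, 1 higher), from 4 to 10 between genotypes in myoblasts and from 0 to 7 for the interaction. That fit also called more of all tested genes, 20.6% lower and 22.9% higher on differentiation in WT, 18.7% and 16.4% between genotypes in myoblasts, and 5.60% and 5.74% for the interaction. Fitted on only the samples compared, the count went from 10 to 5 on differentiation in Fam134bKO cells, from 4 to 7 in myoblasts and from 7 to 1 in myotubes between genotypes. The shares of all tested genes called in these fits are given with the results above. At an adjusted p under 0.01 the counts were 4 on differentiation in WT, 2 in Fam134bKO cells, and 0 in myoblasts and 0 in myotubes between genotypes. Asking for a 2-fold change or more, they were 1, 2, 0 and 0. The shares of all tested genes at these cuts were not counted. The causes were not tested.

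With 1 sample left out, the count ranged from 5 to 18 on differentiation in WT, and it was 5 and 7 without WT myoblasts replicates 3 and 4, and 9, 9 and 6 without WT myotubes replicates 1, 3 and 4. It ranged from 4 to 11 in Fam134bKO cells, at 4 without myoblasts replicate 1 or 3. Between genotypes it ranged from 0 to 3 in myoblasts, where 7 of the 8 samples each took it to 2 or fewer, and from 2 to 10 in myotubes, at 2 and 3 without WT replicates 3 and 4. For the interaction it ranged from 0 to 2, at 2 without WT myotubes replicate 2 or Fam134bKO myoblasts replicate 2. The shares of all tested genes called in these refits were not counted. The median log2 fold change on differentiation in WT ranged from -0.46 to -0.30, the latter without WT myotubes replicate 3, and it stayed between -0.49 and -0.38 under the other settings. The medians between genotypes ranged, with 1 sample left out, from -0.12 to -0.07 in myoblasts and from 0.02 to 0.12 in myotubes.

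The log2 fold change of Myc in WT turned to -0.060 under quantile normalization, and between genotypes in myoblasts it ranged from -0.22, without Fam134bKO myoblasts replicate 1, to 0.25. That of Fam134b on differentiation in WT ranged from -0.0042, without WT myoblasts replicate 4, to 0.35. None of these was called. With a replicate block the count on differentiation in WT was 14 (14 lower, 0 higher; Rrp12 was lost), in Fam134bKO cells 10, in myoblasts 4, in myotubes 9 and for the interaction 0. With the block, 9.28% of all tested genes were called lower and 13.9% higher in WT, and 16.3% and 17.4% in Fam134bKO cells. Between genotypes the shares were 8.43% and 7.15% in myoblasts and 13.6% and 9.72% in myotubes, and for the interaction 1.36% and 1.97%. Leaving out both shallow Fam134bKO myotube libraries, a choice made after seeing the data, gave 18, 7, 4, 6 and 0. That fit called 13.4% of all tested genes lower and 17.1% higher on differentiation in WT. The 4 widest intervals were those of Nop56, Fbl, Myc and Noc3l, which averaged under 50 normalized counts, and the median half-width of a 95% interval was 0.44 on the log2 scale.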

Other observations

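The partners and rivals of Myc were not part of the 49 genes. Mycl, a Myc family member, read 29.5, 27.0, 28.0 and 44.6 normalized counts in WT myoblasts and 3.50, 1.66, 0.868 and 0.834 in Fam134bKO myoblasts. The latter rest on 1 to 4 reads per sample, so no fold is given. In myotubes Mycl read 43.2, 34.2, 59.5 and 61.4 in WT and 22.3, 40.9, 21.6 and 28.0 in Fam134bKO cells, which overlapped and differed without a call (adjusted p = 0.0998). limma called Mycl lower in Fam134bKO myoblasts (adjusted p = 5.99e-08), higher on their differentiation (adjusted p = 1.07e-07) and in the interaction (adjusted p = 0.00101). Mycn had at most 3 reads in any sample and was not tested.

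Of the Mxd proteins, which compete with Myc for Max, Mxd4 had 353 ± 54.5 (SD, n = 4) in WT myotubes and 999.9 ± 260.3 (SD, n = 4) in Fam134bKO myotubes (log2 fold change 1.47, SE 0.18, adjusted p = 5.17e-06), and was also called higher in Fam134bKO myoblasts (log2 fold change 0.80, SE 0.18, adjusted p = 0.00268). Mxd3 read 119, 125, 105 and 153 in Fam134bKO myoblasts and 38.7, 51.1, 35.1 and 50.0 in Fam134bKO myotubes, with no overlap (log2 fold change -1.503, SE 0.22, adjusted p = 1.87e-05), while in WT it went from 116 ± 14.1 (SD, n = 4) to 106 ± 30.4 (SD, n = 4) without a call, and the interaction was called (log2 fold change -1.33, SE 0.31, adjusted p = 0.0164). Mlx was lower on differentiation in both genotypes, at -0.77 (SE 0.20, adjusted p = 0.0087) in WT and -0.59 (SE 0.20, adjusted p = 0.027) in Fam134bKO cells. Mga was lower in Fam134bKO than in WT myotubes (log2 fold change -1.28, SE 0.29, adjusted p = 0.0025). Max, Mxd1, Mxi1, Mnt and Mlxip were called in none of the comparisons, with log2 fold changes on differentiation in WT of -0.49, 0.48, 0.02, -0.08 and -0.12.

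In the wider lists, Fam134bKO myoblasts differed from WT myoblasts in 3 of 39 factors of the large subunit, all lower and led by Rrp8 (log2 fold change -0.68, SE 0.21, adjusted p = 0.0274). No small subunit factor was called by limma. An unadjusted p under 0.05 was found for 3 of 37, a cut for which all tested genes were not counted. The 3 large subunit factors are 7.69% of their list, where 8.50% of all tested genes were called lower. Between myotubes, 1 factor of the small subunit was lower and 4 were higher in Fam134bKO cells, among them Nol6 (log2 fold change 0.88, SE 0.22, adjusted p = 0.00525), and 2 factors of the large subunit were lower and 2 higher, led by Cebpz (log2 fold change 0.67, SE 0.18, adjusted p = 0.011). The shares called were 2.70% lower and 10.8% higher for the small subunit and 5.13% each way for the large subunit, where 13.7% of all tested genes were called lower and 9.74% higher. Of 9 snoRNP assembly factors, 2 (22.2%) were lower and 3 (33.3%) higher in Fam134bKO myotubes, led by Znhit6 (limma, adjusted p = 1.2e-05). Of 10 factors of RNA polymerase I, 1 (10%) was lower and 0 higher. In myoblasts no gene of either list was called.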
